A study of Mus musculus with 4 samples.

Results

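The Fc gamma receptor module consisted of 6 genes, chosen by name as the receptors for immunoglobulin G and the first components of their signaling. The choice used no measured value, though earlier results of these data were known. The 6 genes were Fcgr1, Fcgr3 and Fcgr4 (activating receptors), Fcgr2b (inhibitory receptor), Fcer1g (the shared signaling chain) and Syk (the kinase that it recruits), out of 54532 genes in the deposited table. All 6 had at least 10 reads in at least 1 library, the filter on low counts that left 13715 genes. They were measured by bulk RNA-seq in 4 libraries of wild-type mouse peritoneal macrophages, which the study's methods describe as cells elicited with thioglycollate from BALB/c mice. The macrophages received either normal medium or 30% 4T1-CM, the conditioned medium of the 4T1 mouse mammary carcinoma line, and each medium was combined with the solvent DMSO or with 10 µM CH223191, a small-molecule antagonist of the aryl hydrocarbon receptor (AHR). Each of the 4 conditions thus had 1 library, the length of the treatment and any pooling of mice were not given for them in the sources used here, and no difference below could be set against a spread between replicates. Where 4 values follow each other without their libraries being named, the first and second are those of DMSO and CH223191 in normal medium, and the third and the fourth those of DMSO and CH223191 in 4T1-CM.

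Fc gamma receptors bind the constant part of IgG and allow macrophages to engulf antibody-coated particles and cells. When an immune complex clusters an activating receptor, Src family kinases phosphorylate the paired tyrosines of an immunoreceptor tyrosine-based activation motif (ITAM) in the associated gamma chain, Syk docks there, and phosphoinositide signaling and actin remodeling close the phagocytic cup. Fcgr2b carries an inhibitory motif (ITIM) instead, which recruits the lipid phosphatase SHIP-1 and restrains the same cascade, so the balance of activating and inhibitory receptors sets how readily a macrophage answers IgG.

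The sequences that separate activating from inhibitory signaling are shown for Fcer1g and Fcgr2b, since levels of activating and inhibitory receptors are compared below. Both were read from the principal coding transcripts of the GENCODE M21 annotation (GRCm38), 5′ to 3′ on the coding strand, with the tyrosine codons in capitals.
Fcer1g ITAM: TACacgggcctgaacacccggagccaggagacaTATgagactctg
Fcgr2b ITIM: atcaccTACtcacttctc
The ITAM of Fcer1g took codons 65 to 79 of 86 and joined exons 4 and 5 of 5, at chr1:171229889-171230072 on the minus strand. The ITIM of Fcgr2b took codons 317 to 322 of 340, within exon 8 of 8, at chr1:170961071-170961088 on the minus strand. Of the 6 genes, Fcer1g was the single gene with an in-frame ITAM pattern, which 2.85% of 21559 coding genes held. The short ITIM pattern is common (48.9% of coding genes) and was also met in Fcgr1, Fcgr4 and Fcer1g, so that a match alone does not mark an inhibitory receptor.

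The libraries held between 15535405 and 17557127 counted reads, of which the 6 genes together took 0.115% to 0.177%. A count of 3 reads, taken as the floor for a gene at 0, corresponded to 0.171 to 0.189 CPM (counts relative to library size, scaled by the TMM method), far under the level of every gene of the module. All 6 macrophage markers examined were present in each library, and several were themselves higher with 4T1-CM. Adgre1, which encodes F4/80, stood at 257 CPM (DMSO) and 246 CPM (CH223191) in normal medium and at 1024 CPM (DMSO) and 872 CPM (CH223191) in 4T1-CM. Markers of other cells that carry Fc receptors were scarce: summed reads over the B cell list were at most 20 per library, over the NK cell list at most 6 (5 of 6 genes at 0 in all libraries) and over the mast cell and basophil list at most 3 (4 of 7 at 0 in all libraries, Fcer1a and Ms4a2 among them). The neutrophil list summed to 113, 207, 567 and 419 reads, nearly all of it S100a8, while Ly6g, S100a9 and Retnlg had no read. The T cell, dendritic cell, mesothelial and epithelial (4T1) lists summed to at most 11, 43, 21 and 24 reads per library, and the eosinophil list, mainly Siglecf, to 259, 229, 108 and 97. The fibroblast list, mainly collagen genes, was also higher in 4T1-CM, at 63.0, 30.1, 149 and 127 CPM, and its part in the results below was not tested. In bulk RNA, fewer cells of a type and less RNA per cell cannot be told apart.

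Ratios depended on gene length, most of all those that include the library of normal medium with CH223191. Over the 8323 genes averaging 10 CPM or more, the median log2 ratio of this library over normal medium with DMSO was 0.41 for genes under 1000 bases (240 genes) and -0.09 for genes over 8000 bases. In 4T1-CM the same medians of CH223191 over DMSO were 0.01 and 0.03. For 4T1-CM over normal medium they were -0.17 and 0.09 with DMSO, where that library does not enter, and -0.56 and 0.22 with CH223191. Fcer1g (874 bases), Fcgr4 (1256) and Fcgr3 (1736) are short and Syk (9362) is long. The module's ratios of 4T1-CM, and of CH223191 in normal medium, are therefore also given after the trend on length was removed. Those of the pathway genes are given where this changed a call or the value by much. The whole fitted trend was subtracted, and its overall level was not added back. The median log2 ratio of 4T1-CM over all 13715 genes thereby moved from 0.01 to 0.08 with DMSO and from 0.02 to 0.10 with CH223191. Values after removal hold this shift as well.

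The high-affinity receptor and the inhibitory receptor were the genes of the module that were at least 2-fold higher with 4T1-CM in both comparisons. Fcgr1, the receptor that can hold monomeric IgG, had 255 reads (16.0 CPM) with DMSO and 351 reads (22.1 CPM) with CH223191 in normal medium, against 1546 reads (88.3 CPM) with DMSO and 1278 reads (78.7 CPM) with CH223191 in 4T1-CM. Both libraries of 4T1-CM were above both of normal medium. The log2 ratio of 4T1-CM over normal medium was 2.46 with DMSO (95% interval 2.27 to 2.66, 5.51-fold) and 1.83 with CH223191 (1.66 to 2.01, 3.56-fold). After removal of the length trend these log2 ratios were 2.60 and 2.06. These intervals, like all intervals of ratios here, are exact Clopper-Pearson intervals of how a gene's reads split between 2 libraries and cover counting error only.

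Fcgr2b had 1300 reads (81.5 CPM), 1190 reads (74.8 CPM), 6146 reads (351 CPM) and 5157 reads (317 CPM) in the same order of libraries. The libraries fell into a low pair in normal medium and a high pair in 4T1-CM, with little difference inside either pair. The log2 ratio with 4T1-CM was 2.11 with DMSO (2.02 to 2.19, 4.30-fold) and 2.08 with CH223191 (1.99 to 2.18, 4.24-fold), and after removal of the length trend 2.14 and 2.07.

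**Figure D1:**
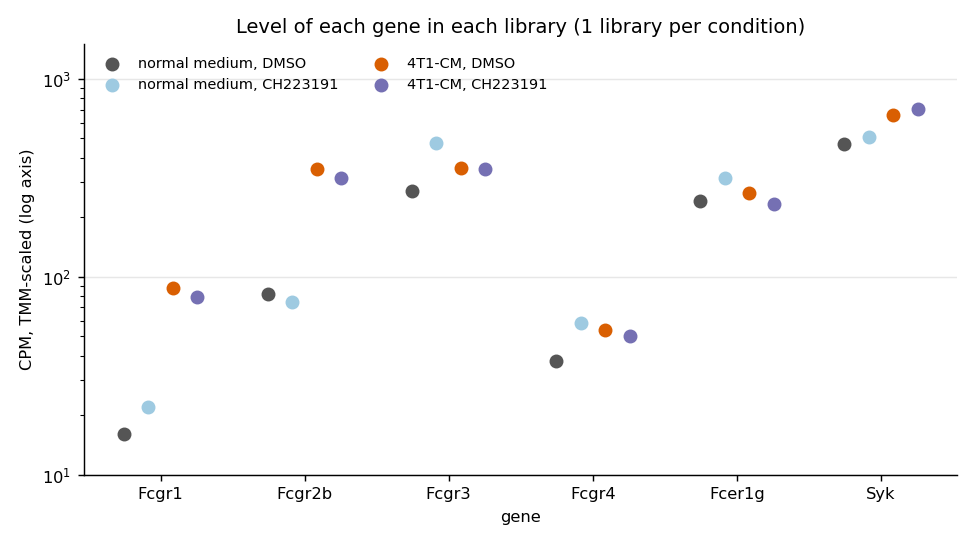
Level of each gene of the module in each of the 4 libraries, in CPM on a log axis; each point is 1 library, and there are no replicates. Fcgr1 and Fcgr2b form a low pair in normal medium and a high pair in 4T1-CM, while Fcgr3, Fcgr4 and Fcer1g are lowest in normal medium with DMSO or in 4T1-CM with CH223191 and highest in normal medium with CH223191.

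The low-affinity activating receptor Fcgr3 followed another order. It had 4345 reads (273 CPM), 7565 reads (476 CPM), 6202 reads (354 CPM) and 5686 reads (350 CPM). The highest library was normal medium with CH223191, the lowest was normal medium with DMSO, and the libraries of 4T1-CM lay between them and close to each other. The log2 ratio with 4T1-CM was 0.38 with DMSO (0.32 to 0.43) and -0.44 with CH223191 (-0.49 to -0.39), and after removal of the length trend it was 0.58 and -0.08.

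Fcgr4, which binds IgG2a and IgG2b, had 601 reads (37.7 CPM), 931 reads (58.5 CPM), 940 reads (53.7 CPM) and 816 reads (50.2 CPM). Normal medium with DMSO was the low library, and the other three lay between 50.2 and 58.5 CPM. Its log2 ratio with 4T1-CM was 0.51 with DMSO (0.36 to 0.66) and -0.22 with CH223191 (-0.36 to -0.08), and the latter turned to 0.25 after removal of the length trend.

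Fcer1g, the gamma chain without which the activating receptors are neither assembled nor able to signal, had 3847 reads (241 CPM), 4995 reads (314 CPM), 4664 reads (266 CPM) and 3770 reads (232 CPM). Its levels spanned 0.44 on the log2 scale, the narrowest range in the module. The log2 ratio with 4T1-CM was 0.14 with DMSO (0.08 to 0.20) and -0.44 with CH223191 (-0.50 to -0.38), and removal of the length trend turned the latter to 0.13. Fcgr1 and its signaling chain thus differed in their response. There were 0.0663 reads of Fcgr1 per read of Fcer1g (DMSO) and 0.0703 (CH223191) in normal medium, against 0.332 and 0.339 in 4T1-CM. No scaling between libraries enters this ratio, but the trend on gene length does. With the trend removed, the log2 ratios with 4T1-CM were 2.60 (DMSO) and 2.06 (CH223191) for Fcgr1, and 0.39 and 0.13 for Fcer1g.

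Syk had 7513 reads (471 CPM), 8110 reads (510 CPM), 11556 reads (660 CPM) and 11407 reads (702 CPM). It was modestly higher in both libraries of 4T1-CM, with log2 ratios of 0.49 with DMSO (0.44 to 0.53) and 0.46 with CH223191 (0.42 to 0.50). With the length trend removed the values were 0.43 and 0.29.

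**Figure D2:**
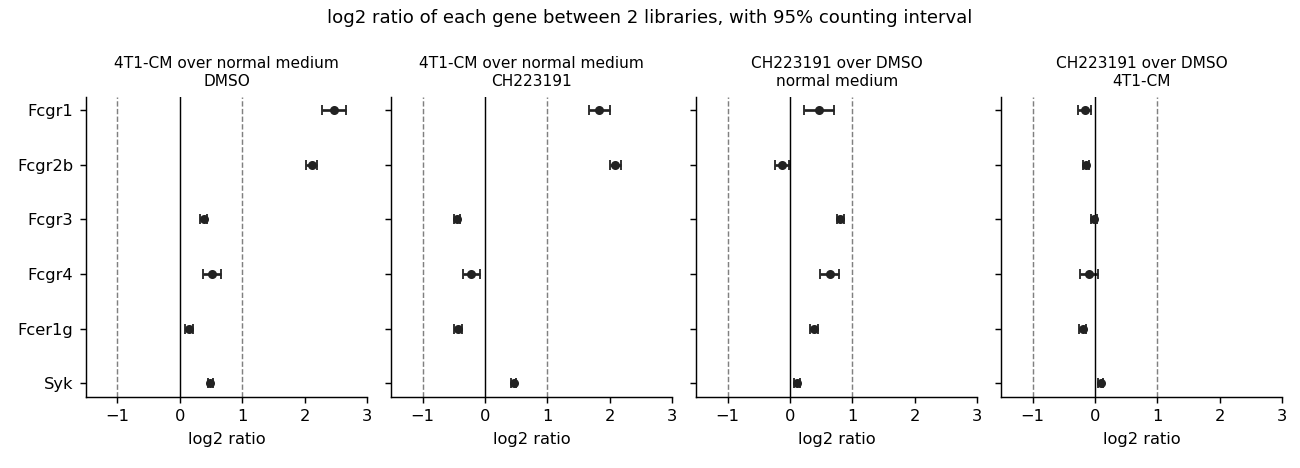
log2 ratio of each gene between 2 libraries in the 4 comparisons, with exact 95% intervals for counting error; dashed lines mark 2-fold. Fcgr1 and Fcgr2b lie near or above 2 in both comparisons of 4T1-CM, and all 6 genes lie inside 2-fold in both comparisons of CH223191.

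At a threshold of 2-fold, 2 of the 6 genes (Fcgr1 and Fcgr2b) were higher with 4T1-CM in the presence of DMSO and 0 were lower, where 12.2% of the 13715 genes were higher and 6.12% lower. In the presence of CH223191 the same 2 were higher and 0 lower, against 12.0% and 7.86% of all genes. Over both comparisons, which share no library, 8.18% of all genes were at least 2-fold higher in each and 3.38% lower in each. Among the 3658 genes with a mean level no lower than that of the lowest gene of the module, 5.82% were at least 2-fold higher with 4T1-CM in DMSO and 5.80% in CH223191. The median log2 ratio of the 6 genes was 0.50 with DMSO and 0.12 with CH223191, beside 0.01 and 0.02 over all genes.

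Since the conditions have 1 library each, an adjusted p can come only from a fit over all 4 libraries that takes the effects of medium and inhibitor as additive and any interaction as spread (edgeR quasi-likelihood test, 1 residual degree of freedom, Benjamini-Hochberg over 13715 genes). In this fit 32.6% of all genes passed an adjusted p of 0.05 for the medium. Fcgr2b (log2 2.10, adjusted p = 1.01e-06), Fcgr1 (2.14, 4.93e-06) and Syk (0.47, 0.0128) passed in edgeR, in the direction seen in 2 of 2 comparisons. Fcer1g (-0.15, adjusted p = 0.496), Fcgr4 (0.14, 0.552) and Fcgr3 (-0.03, 0.906) did not pass in edgeR, and for these 3 the additive value averages ratios of opposite sign.

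CH223191 was compared with DMSO to ask what the antagonist changes in either medium. How far it blocked AHR in these libraries was not examined here. In normal medium, 0 of the 6 genes were 2-fold higher or lower, beside 4.84% and 3.31% of all genes. The largest value was that of Fcgr3, with a log2 ratio of 0.80 (0.75 to 0.86, 1.75-fold), followed by Fcgr4 at 0.63 (0.49 to 0.79), Fcgr1 at 0.46 (0.23 to 0.70) and Fcer1g at 0.38 (0.32 to 0.44). Syk stood at 0.11 (0.07 to 0.16) and Fcgr2b at -0.12 (-0.24 to -0.01). Removal of the length trend left 0.66 for Fcgr3, 0.41 for Fcgr4 and 0.39 for Fcgr1, but 0.05 for Fcer1g, and it gave 0.20 for Syk and -0.08 for Fcgr2b.

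In 4T1-CM, again 0 of the 6 genes were 2-fold higher or lower with CH223191, beside 2.80% and 2.62% of all genes. The log2 ratios ran from -0.20 (-0.26 to -0.14) for Fcer1g to 0.09 (0.05 to 0.13) for Syk, with -0.17 for Fcgr1 (-0.27 to -0.06), -0.15 for Fcgr2b (-0.20 to -0.09), -0.10 for Fcgr4 (-0.23 to 0.04) and -0.02 for Fcgr3 (-0.07 to 0.03). The intervals of Fcgr3 and Fcgr4 included 0. In the additive fit 0.0802% of all genes (11) passed for the inhibitor, and none of the 6 did (edgeR adjusted p from 0.778 to 0.941; 0 of 6 had an unadjusted p under 0.05).

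**Figure D3:**
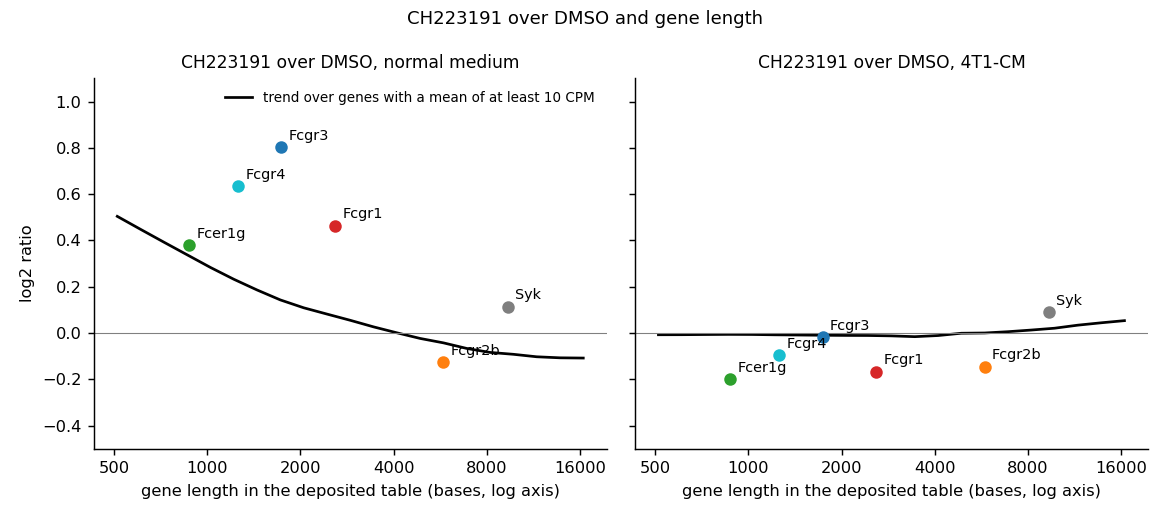
log2 ratio of CH223191 over DMSO against gene length for the 6 genes (points) and the smoothed trend over 8323 genes (line), in normal medium (left) and 4T1-CM (right). The trend falls with length in normal medium and is flat in 4T1-CM; Fcgr3, Fcgr4 and Fcgr1 lie above it in normal medium and Fcer1g lies on it.

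The log2 ratio for 4T1-CM with DMSO was also subtracted from that with CH223191. For Fcgr2b the difference was -0.02 on the log2 scale (-0.15 to 0.10, from the Poisson variance of the 4 counts) and for Syk -0.02 (-0.08 to 0.03). It was -0.63 for Fcgr1 (-0.89 to -0.37), -0.82 for Fcgr3 (-0.90 to -0.75), -0.73 for Fcgr4 (-0.93 to -0.53) and -0.58 for Fcer1g (-0.67 to -0.49). With the length trend removed, the differences were -0.07 for Fcgr2b, -0.14 for Syk, -0.54 for Fcgr1, -0.66 for Fcgr3, -0.51 for Fcgr4 and -0.26 for Fcer1g. The ratios of Fcgr4 and Fcer1g then no longer had opposite signs with DMSO and with CH223191, and the value of Syk lay outside its counting interval. With 1 library per condition the difference could not be tested.

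Levels of different genes were compared per kilobase of gene length (RPKM, here the CPM divided by the length in kilobases). With the gene lengths of the deposited table, the order in normal medium was Fcer1g, Fcgr3, Syk, Fcgr4, Fcgr2b and Fcgr1, from 276 RPKM for Fcer1g to 6.18 RPKM for Fcgr1 with DMSO. In 4T1-CM with DMSO Fcgr2b (60.6 RPKM) stood above Fcgr4 (42.8 RPKM), and Fcgr1 reached 34.1 RPKM, close under Fcgr4. Fcer1g exceeded the 99th percentile of the expressed genes in every library (99.1 to 99.2), whereas Fcgr1 moved from the 59.8 percentile in normal medium with DMSO to 90.8 in 4T1-CM with DMSO. The spread between replicates is unknown, so no neighbours in this order were shown to differ beyond it.

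The composition of the receptors followed from these shifts. Of the RPKM summed over the 4 receptors, Fcgr3 made up 75.7% with DMSO and 80.1% with CH223191 in normal medium, but 59.8% and 61.7% in 4T1-CM. The share of Fcgr2b was 6.80%, 3.78%, 17.8% and 16.8%, and that of Fcgr1 was 2.98%, 2.49%, 9.99% and 9.30%, while Fcgr4 kept between 12.2% and 14.5%. The activating receptors together had 13.7 times the RPKM of Fcgr2b in normal medium with DMSO and 25.5 times with CH223191, against 4.63 and 4.96 times in 4T1-CM. Fcgr3 and Fcgr4 each followed this fall. Fcgr1 alone had 0.439 and 0.660 times the RPKM of Fcgr2b in normal medium and 0.563 and 0.554 times in 4T1-CM, and so did not fall with DMSO.

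These ratios depend on the length given to Fcgr2b, which is 5790 bases in the table but 1520 for the median of its 4 coding transcripts. With median coding lengths, a choice made after seeing the data, the ratio of activating receptors to Fcgr2b became 4.51, 8.42, 1.49 and 1.60, and the share of Fcgr2b 18.1%, 10.6%, 40.1% and 38.4%. The length of Fcgr2b is the same in every library and cancels from the change of this ratio between libraries. A fall of like size under either length was therefore fixed in advance and is no check on it. The absolute value of the ratio did depend on the length. As reads, which need no length given to a gene, there were 0.299 and 0.157 of Fcgr2b per read of Fcgr3 in normal medium (DMSO and CH223191). In 4T1-CM there were 0.991 and 0.907, 3.31-fold and 5.77-fold more. Fcgr4 per read of Fcgr3 hardly moved, at 0.138, 0.123, 0.152 and 0.144. The trend on gene length was not removed from these ratios or from the shares. With it removed, the log2 ratios with 4T1-CM were 2.14 (DMSO) and 2.07 (CH223191) for Fcgr2b. For Fcgr3 they were 0.58 and -0.08, so the ratio of these 2 genes rose by less.

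**Figure D4:**
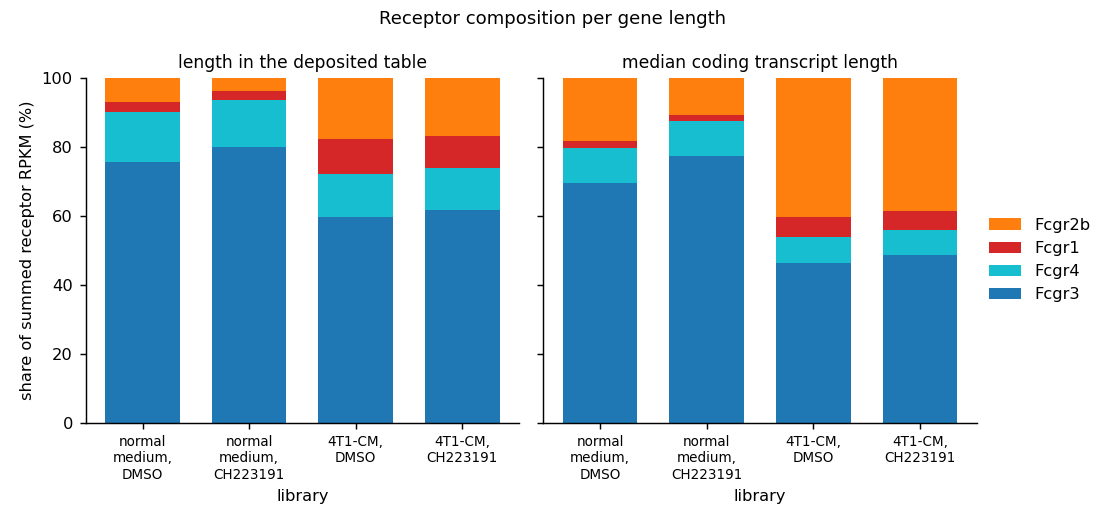
Share of each receptor in the RPKM summed over Fcgr1, Fcgr2b, Fcgr3 and Fcgr4 in each library (%), with the gene lengths of the deposited table (left) and with median coding transcript lengths (right). In both panels Fcgr2b and Fcgr1 take larger shares in the libraries of 4T1-CM and Fcgr3 a smaller one, and the share of Fcgr2b itself is larger with the shorter lengths.

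In the genome, 4 of the 6 genes lie together on chromosome 1, within 275749 bases (GRCm38). These are Fcgr2b (chr1:170958617-170976547, minus strand), Fcgr4 (chr1:171018920-171029761, plus strand), Fcgr3 (chr1:171051174-171064935, minus strand) and Fcer1g (chr1:171229572-171234365, minus strand). Fcgr1 lies apart on chromosome 3 (chr3:96282909-96293969, minus strand) and Syk on chromosome 13 (chr13:52583173-52648792, plus strand). Fcgr1 and Fcgr2b, on different chromosomes, were both more than 3-fold higher with 4T1-CM. Fcgr4, Fcgr3 and Fcer1g, neighbours of Fcgr2b, stayed within 2-fold. A relation between position and response was not tested.

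Fcgr2b and Fcgr3 are paralogs, and some reads fit either. Of 1733 stretches of 50 bases in the Fcgr3 transcripts, 9.58% (166) also occurred in Fcgr2b, and these were 2.92% of the 5685 stretches of Fcgr2b. Fcgr3 was among 146 other genes with which Fcgr2b shared stretches, and together these took 395 of its stretches (6.95%). The levels of Fcgr2b and Fcgr3 are uncertain for this reason. How far shared stretches alter their read counts was not tested, and the shares of stretches do not bound it. Fcgr1, Fcgr4, Fcer1g and Syk shared no such stretch with another gene. Annotated genes that overlap the module were hardly read: Gm38204, antisense to Fcgr2b, had at most 2 reads, Gm26110 in Fcgr4 at most 3, and Mir6546 in Fcgr3 none.

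The promoter of Fcgr1 is shown because this gene had the largest ratio in the module with 4T1-CM in DMSO; with CH223191 the ratio of Fcgr2b was larger. It is the stretch of 250 bases before the RefSeq start, at chr3:96293970-96294219 on the minus strand of GRCm38.p6, 5′ to 3′, with the motif matches in capitals.
Fcgr1 promoter: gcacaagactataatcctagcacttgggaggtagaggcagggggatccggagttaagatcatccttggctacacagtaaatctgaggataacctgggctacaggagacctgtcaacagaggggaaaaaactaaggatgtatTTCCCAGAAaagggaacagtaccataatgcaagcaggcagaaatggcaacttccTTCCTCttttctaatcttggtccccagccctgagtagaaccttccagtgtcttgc
The first match, TTCCCAGAA, fits the gamma-activated site TTCNNNGAA bound by STAT factors and lies 109 to 101 bases before the start, and the second is the PU.1-type ETS core GAGGAA on the opposite strand, 55 to 50 bases before the start. TTCNNNGAA occurred in 7.02% and GAGGAA in 23.3% of 32851 RefSeq promoter windows on either strand. The AHR core GCGTG, found in 28.2% of windows, and the interferon-stimulated response element (a pair of GAAA blocks set apart by any 2 bases), found in 2.98%, were not among the letters of this window. At the first start of the other genes, GCGTG occurred before Fcgr3 and Fcer1g, GAGGAA before Fcgr3 and Fcgr4, and the interferon-stimulated response element before Fcgr4, as GAAAAGGAAA 73 to 64 bases before the start. The windows of Fcgr2b and of the first start of Syk held none of the 4 motifs. A match describes the letters of the window, not binding.

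Fcgr1 and Fcgr2b were the genes of the module whose levels spanned at least 1 on the log2 scale, and the genes with the most similar pattern over the 4 libraries were sought among 8322 others averaging 10 CPM or more, by the Euclidean distance of centered log2 CPM. For Fcgr1 these were mt-Rnr1, a mitochondrial ribosomal RNA (distance 0.13), Ell2, a transcription elongation factor (0.20), and Rnase4, a ribonuclease (0.21). For Fcgr2b they were Ece1, an endothelin-converting enzyme (0.08), Pla2g7, which hydrolyzes platelet-activating factor (0.12), and Btg1, an antiproliferative protein (0.12). Fcgr2b ranked 28 among the genes most like Fcgr1, at a distance of 0.42. Over 4 libraries such a distance is a description, with no test.

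Beyond the module, 93 genes of the pathway were followed in 7 lists, of which 77 passed the filter on low counts. With 4T1-CM, 6 of the 77 (7.79%) were at least 2-fold higher in both comparisons and 8 (10.4%) at least 2-fold lower in both, beside 8.18% and 3.38% of all genes. After removal of the length trend 6 (7.79%) and 7 (9.09%) were, beside 9.24% and 2.48% of all genes, with Pak1 lost from the second count. In the additive fit 17 of the 77 were higher and 30 lower in edgeR, where 32.6% of all genes passed in either direction. That share was not split by direction or matched for abundance. The counts by direction, here and for each list below, therefore have no background of their own and are descriptions only. With CH223191, 0 were higher and 1 lower in normal medium (Yes1, with 9 and 2 reads) and 0 higher and 1 lower in 4T1-CM (Fcrls, with 6 and 1 reads). The median log2 ratio over the 77 genes was -0.19 with 4T1-CM in DMSO and -0.26 in CH223191, beside 0.01 and 0.02 over all genes.

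**Figure D5:**
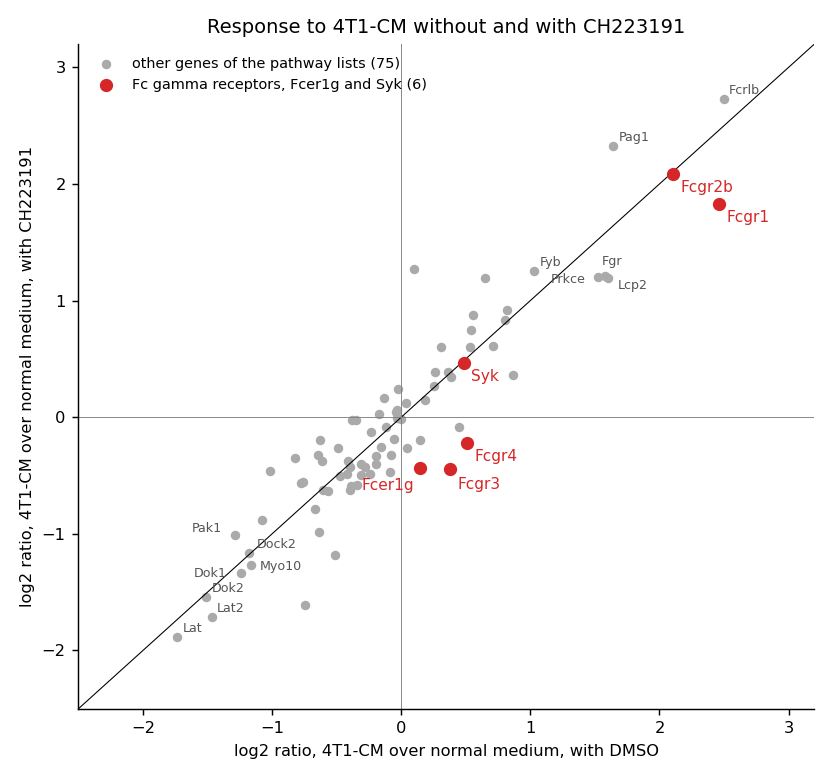
log2 ratio of 4T1-CM over normal medium with DMSO (horizontal) against that with CH223191 (vertical), for the 6 genes of the module (red) and 75 genes of the pathway lists (grey; 2 genes with 3 reads or fewer in a library are left out); the diagonal marks equal responses. Fcgr1 and Fcgr2b lie at the upper right, Fcgr3, Fcgr4 and Fcer1g under the diagonal near 0, and Lat, Lat2, Dok1 and Dok2 at the lower left.

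Among other Fc receptors, 4 of 13 genes passed the filter, and the receptors for IgE, Fcer1a and Fcer2a, had no read. Fcgrt, the neonatal Fc receptor that recycles IgG, was the most abundant, with 948, 881, 589 and 708 reads, and its log2 ratios with 4T1-CM were -0.82 and -0.35, the latter -0.05 after removal of the length trend. Fcrlb, an intracellular Fc receptor-like protein, had 12, 8, 77 and 57 reads and was higher in both libraries of 4T1-CM (log2 2.50 and 2.73), from counts that leave wide intervals (1.66 to 3.56 and 1.73 to 4.08). Fcrls, another Fc receptor-like gene, had 26, 18, 6 and 1 reads. The median log2 ratio of the 4 genes was -0.71 with DMSO and -0.48 with CH223191, and 1 was higher and 3 lower in the additive edgeR fit.

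In a list of transmembrane adaptors of immune receptors and the Syk homolog Zap70, 2 of 6 genes passed. Tyrobp, the adaptor DAP12 that like Fcer1g presents an ITAM to Syk, had 10225, 17646, 6714 and 5919 reads. It was lower in both libraries of 4T1-CM, by a log2 ratio of -0.74 (-0.79 to -0.70) with DMSO and -1.61 (-1.65 to -1.56) with CH223191, and its highest library was normal medium with CH223191, as for Fcgr3. Hcst (DAP10), an adaptor without an ITAM, stood at -0.51 and -1.18. Both genes are under 1000 bases long, and removal of the length trend left -0.50 (DMSO) and -0.98 (CH223191) for Tyrobp and -0.26 and -0.57 for Hcst, all inside 2-fold. Both were lower in the additive edgeR fit.

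The Src family kinases and their regulators held 11 of 12 genes after the filter, of which 2 were at least 2-fold higher in both comparisons and 0 lower. Fgr, a myeloid Src kinase, had 358, 508, 1178 and 1205 reads (log2 1.58 and 1.21), and Pag1, the membrane adaptor that recruits the inhibitory kinase Csk, had 297, 204, 1020 and 1046 reads (1.64 and 2.32). Lyn, which phosphorylates both ITAMs and ITIMs, stood at -0.03 and 0.00. Ptprc (CD45), the most abundant gene of the list, had 6704, 5534, 6708 and 6342 reads. The median over the list was 0.56 with DMSO and 0.87 with CH223191, and 5 genes were higher and 1 lower in the additive edgeR fit.

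The adaptors downstream of Syk parted in direction, with 2 of 12 genes at least 2-fold higher in both comparisons and 2 lower. Lcp2 (SLP-76) had 430, 534, 1437 and 1247 reads (log2 1.60 and 1.19) and Fyb, which binds it, 1288, 1296, 2887 and 3153 reads (1.03 and 1.25). The membrane scaffolds were lower: Lat had 1580, 1459, 520 and 403 reads (-1.74 and -1.89) and Lat2 (NTAL) 4033, 5315, 1602 and 1651 reads (-1.47 and -1.72). Grb2, the most abundant adaptor, stood at -0.28 and -0.42, the latter -0.22 after removal of the length trend. The median over the list was -0.39 in both comparisons, and 3 genes were higher and 6 lower in the additive edgeR fit.

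All 19 genes of the lipid enzymes and kinases passed the filter, and Prkce was the single gene at least 2-fold changed in both comparisons, with 75, 107, 238 and 252 reads (log2 1.52 and 1.20). This protein kinase C isoform acts in Fc receptor phagocytosis. Prkcd, the most abundant gene of the list, stood at 0.04 and 0.12. The median over the list was -0.18 with DMSO and -0.02 with CH223191, and 4 genes were higher and 7 lower in the additive edgeR fit.

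All 18 genes of the list for actin remodeling at the phagocytic cup passed, with 0 at least 2-fold higher in both comparisons and 3 lower. Dock2, an exchange factor for Rac, had 6967, 6826, 3381 and 3107 reads (log2 -1.18 and -1.17), Myo10, a motor of the advancing cup, 1730, 1663, 849 and 707 reads (-1.16 and -1.26), and Pak1, a kinase activated by Rac and Cdc42, 609, 471, 274 and 238 reads (-1.29 and -1.01, the latter -0.92 after removal of the length trend). Cdc42 itself, the most abundant, was at -0.04 and 0.05 (0.25 after removal of the length trend). The median over the list was -0.37 with DMSO and -0.30 with CH223191, and 1 gene was higher and 9 were lower in the additive edgeR fit.

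Of the inhibitory phosphatases and adaptors, 11 of 12 genes passed, with 0 at least 2-fold higher in both comparisons and 2 lower. Inpp5d, the phosphatase SHIP-1 that acts with Fcgr2b, was the most abundant and had 2433, 2526, 3495 and 3286 reads, with log2 ratios of 0.39 (0.31 to 0.46) and 0.35 (0.27 to 0.42), the latter 0.23 after removal of the length trend. Dok1 had 1481, 1560, 688 and 630 reads (-1.24 and -1.34) and Dok2 1283, 1327, 495 and 464 reads (-1.51 and -1.55); both are adaptors that restrain signaling below tyrosine kinases. Fcgr2b and its effector phosphatase were thus both higher in the libraries of 4T1-CM, though by different factors, while the Dok adaptors were lower. The median over the list was -0.08 with DMSO and -0.27 with CH223191, and 3 genes were higher and 2 lower in the additive edgeR fit.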

How the data were processed

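Reads per gene were counted by the authors, who deposited whole-number counts without normalization for the 4 libraries in a table of 54532 genes. The submitters' processing notes name HISAT2 2.0.5 and DESeq2; the build, annotation and strand setting were not given for these libraries, but the positions of all 6 genes equal those of GENCODE M21 on GRCm38. Without a known strand setting, overlapping genes are uncertain.

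The 6 genes and all lists were chosen with earlier results of these data known. A gene needed 10 or more reads in 1 or more of the libraries (13715 genes), and libraries were scaled by TMM (edgeR 4.0.16, R 4.3.3). The log2 ratio of 2 libraries used a prior count of 0.5, and its 95% interval comes from the exact Clopper-Pearson bounds on the read split, covering counting error only. PCR duplicates are counted as reads, which narrows these intervals and the floor of 3 reads. With 1 library per condition no comparison was tested; an additive edgeR quasi-likelihood fit (medium and inhibitor, 1 residual degree of freedom) was an alternative. The text names, from each of the 7 pathway lists, the gene with the highest mean CPM and those past 2-fold in 1 direction in both comparisons of 4T1-CM, with at least 30 reads in the higher library. Other pathway genes named (Fcrls, Hcst, Lyn and Yes1) were chosen after their values were seen. Marker lists covered macrophages and 10 other cell types. Other alternatives were DESeq2 1.42.0 size factors, total counts, TMM over protein-coding genes, no filter, a stricter filter (10 or more reads in each library), a prior count of 5, leaving out the 50 most abundant genes, other transcript lengths and, added after seeing the data, removal of the trend on gene length (lowess, fraction 0.3) and median coding lengths. The procedure was tested on simulated counts. Promoters came from RefSeq (GRCm38.p6, 1 or more starts for each of the 6 genes), transcripts from GENCODE M21. Windows that overlap transcribed sequence of another transcript are not printed. Python 3.11.15, numpy 2.4.6, pandas 2.3.3, scipy 1.17.1, statsmodels 0.14.6 and matplotlib 3.10.9 were used.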

Additional observations from a re-analysis of the deposited data

Results flagged for a closer look

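In 5 cases a gene moved in opposite directions under the same treatment, with counting intervals on either side of 0. With 4T1-CM, Fcgr3 had a log2 ratio of 0.38 with DMSO and -0.44 with CH223191, Fcgr4 had 0.51 and -0.22, and Fcer1g had 0.14 and -0.44. With CH223191, the log2 ratio of Fcgr1 was 0.46 in normal medium but -0.17 in 4T1-CM, and that of Fcer1g 0.38 and -0.20. Each direction rests on 1 library against another, and the difference between the directions was not tested. Each of the 5 cases draws on all 4 libraries. After removal of the trend on gene length, Fcgr4 and Fcer1g were at 0.25 and 0.13 with 4T1-CM in CH223191. This was the same sign as with DMSO, while Fcgr3 stayed on the negative side at -0.08. Fcgr1 kept opposite signs with CH223191, at 0.39 and -0.16. Fcer1g stood at 0.05 and -0.19, but in normal medium the trend at its length (0.33) lay inside its counting interval (0.32 to 0.44). Its value there could not be told from 0.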

How the results depend on the processing

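No paired analysis was possible because each condition has 1 library, and no library could be left out of a comparison. The number of genes of the module at least 2-fold higher or lower was the same under each alternative of scaling, filter, prior count and gene length that was run. All 24 log2 ratios of the module kept their sign under the 7 alternatives of scaling, filter and prior count, where they moved by at most 0.06 (total counts). With the length trend removed, 22 of 24 kept their sign, but 13 moved outside their counting interval, by at most 0.57. The absolute ratio of activating receptors to Fcgr2b was 10.4, 19.3, 3.43 and 3.69 with the longest coding transcripts, in the order of libraries used above.

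Counts of other genes depended on the filter. With no filter on low counts, the genes at least 2-fold higher and lower numbered 4601 and 2587 for 4T1-CM in DMSO, 4358 and 2995 for 4T1-CM in CH223191, 2815 and 2260 for CH223191 without 4T1-CM, then 2583 and 2688 for CH223191 with 4T1-CM, in place of 1673 and 839, 1648 and 1078, 664 and 454, and 384 and 359. With at least 10 reads in every library they numbered 849 and 500, 868 and 677, 226 and 89, and 83 and 53. With a prior count of 5 CH223191 gave 363 and 168 without 4T1-CM and 183 and 139 with it. Of the pathway genes, 10 in place of 6 were at least 2-fold higher with 4T1-CM in DMSO with no filter. For CH223191 without 4T1-CM they numbered 2 higher and 4 lower, and with 4T1-CM 3 higher and 3 lower, in place of 0 and 1 in each. With at least 10 reads in every library, or with a prior count of 5, 0 were lower with CH223191 in either medium. These alternatives add or drop genes of few reads or shrink their ratios.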
